A study of Homo sapiens with 12 samples.

Results

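The genes described here encode the proteins of the cytosolic ribosome. They were taken by name: a gene probe of the array belonged to the family when its gene name was RPL or RPS followed by a number, with or without a final A or X, or was RPLP0, RPLP1, RPLP2 or RPSA. This rule found 189 probes of 76 gene names among 41000 gene probes with 29123 names. After the filter on dim probes 188 probes of 75 genes could be tested, 30 of them genes of the small subunit and 45 of the large subunit. The gene left out was RPSA, a small-subunit protein also known as a laminin receptor. Its only probe was well above background on 1 of 12 arrays, with log2 signals of 5.62 to 6.03 on the 12 arrays. RPL10 was not found by the rule and was not analysed here.

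HuH-7 cells, an established line from a hepatocellular carcinoma that carries a mutant p53, were treated for 24 h with DMSO, the solvent, or with SLMP53-2 at 28 µM or 42 µM. SLMP53-2 is a small molecule studied as a reactivator of mutant p53. There were 4 arrays per group on 5 slides, and the labels call them biological replicates. The titles name the higher dose as 42 µM, and another label of the same samples gives 48 µM; it is called 42 µM throughout.

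The cytosolic ribosome is built of ribosomal RNA and of proteins that are mostly present in a single copy each, so that cells make the proteins of both subunits in matched amounts. Their mRNAs are short and abundant, and most start with a terminal oligopyrimidine tract, a C followed by a run of C and T, through which their translation is controlled together when nutrients or the kinase mTOR change. Several free ribosomal proteins, RPL5 and RPL11 above all, bind MDM2, the ubiquitin ligase that degrades p53, when ribosome assembly is disturbed. Many family members are also used as reference genes in expression measurements.

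The tract is shown first, because it is the sequence feature by which the family is known and the rule did not use it. Of the 75 genes, 60 had a promoter entry in RefSeq (GRCh38.p14, 250 bases before to 50 bases after the transcription start). In 41 of these 60 (68.3%) the start site itself was a C followed by at least 4 pyrimidines, against 4.04% of all 27305 promoters of that length. Within 5 bases of the start site such a tract was found in 48 of 60 (80.0%), against 19.6% of all promoters. Windows of 30 bases, from 10 bases before the start site to 20 bases from it on, follow for 10 of the genes described below, 5′ to 3′ on the transcribed strand, with the tract in capitals. RPS15 and RPS26 are included as members in which no such tract began within 5 bases of the annotated start. Tracts that begin further into their windows lay outside that search and stay in lower case.
RPL3 (chr22:39319604-39319633, minus strand): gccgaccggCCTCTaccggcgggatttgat
RPL11 (chr1:23691769-23691798, plus strand): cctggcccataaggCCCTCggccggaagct
RPL13A (chr19:49487598-49487627, plus strand): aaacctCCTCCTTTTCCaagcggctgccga
RPLP0 (chr12:120201092-120201121, minus strand): ggcgcgaggCCCTTCTCTCgccaggcgtcc
RPLP1 (chr15:69452808-69452837, plus strand): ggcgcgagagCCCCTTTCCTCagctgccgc
RPLP2 (chr11:809957-809986, plus strand): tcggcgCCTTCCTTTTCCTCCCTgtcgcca
RPS6 (chr9:19380217-19380246, minus strand): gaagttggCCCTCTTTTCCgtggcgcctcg
RPS19 (chr19:41860245-41860274, plus strand): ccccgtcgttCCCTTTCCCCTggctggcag
RPS15 (chr19:1438386-1438415, plus strand): aggcgcggaccaaagcgatctcttctgagg
RPS26 (chr12:56041908-56041937, plus strand): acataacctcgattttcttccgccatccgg

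Other short motifs were searched on both strands of the same 60 promoters. CCGGAAG, a core that ETS family factors bind, was in 21 (35.0%), against 2913 of all 27305 promoters. AAGATGGC, a core of YY1 sites whose first letters can be the last letters of the ETS core, was in 6 (10.0%), against 3.03%. CACGTG, known as the E-box, was in 3 of 60, against 7.43%. A TATA box, TATAAA, was in 5 (8.33%), against 3264 of all 27305. The 75 genes lay on 21 chromosomes, with 12 of them on chromosome 19. All 75 have named pseudogenes in the RefSeq table, with a median of 16.0 and up to 137 for RPL21, so that a probe under one of these names may also bind transcripts of copies.

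Across the 12 arrays 65.0% to 85.0% of the spots were well above background, and all pairs of arrays correlated between 0.9663 and 0.9949 over the brightest probe of each gene. All 10 hepatocyte markers checked, ALB and AFP among them, were detected on 12 of 12 arrays. Of 7 markers of other cell types, 3 were detected on all 12 arrays, PECAM1 and COL1A1 on 11, PTPRC on 3 and KRT5 on 2; their part in the results was not tested. Replicate 4 of 28 µM stood apart from the other arrays of its group in RPLP2, and outside the family in EIF1 and RPS27L. EIF1 was at 16.06 on that array, with the others at 16.51 to 16.55. The family median and some list medians at 28 µM are therefore also given without that array. Medians of the subunits and of smaller groups of members include it.

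The brightest tested probe stood for each gene. These 75 probes were well above background on all 12 arrays, and their signals were checked against the ceiling of the scanner. No member spot carried a saturation flag. The highest mean signal reached 23.0% of the saturation value, for RPS27, followed by RPL13 with 21.6%, RPS28 with 19.9% and RPL35 with 19.2%. A probe was to be called near the ceiling at 50% of the saturation value, and 0 of the 75 genes reached it. The median of the SD within groups was 0.167 on the log2 scale for the family, against 0.22 for all genes, with a range over members from 0.0351 to 0.944.

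At neither dose did a member pass the test. Values are log2 differences between group means, from limma's fit to all tested probes, with Benjamini-Hochberg adjustment over 33477 probes. At 28 µM against DMSO the 75 genes had a median log2 difference of 0.028, with 40 above 0, and ranged from −0.49 (RPL31) to 0.53 (RPS6). The share above 0 was 53.3%, against 45.4% of all 24176 genes, whose median was −0.024. No member was called at an adjusted p below 0.05, and neither was any other gene (0%). At an unadjusted p below 0.05, 1 member was higher and 0 were lower, where 5.58% and 6.28% of all genes were. That member, RPL3, was also the only one whose treated arrays all lay above DMSO, against 2.79% of all genes, and 0 lay below, against 2.93%. Differences were within 0.3 of 0 in 72 members (96%), compared with 80.1% of all genes. Without replicate 4 of 28 µM the median was 0.058, with 53 genes above 0, and 0 members were called in a fit that called 670 of all genes. For 66 of the 75 members (88%) the 95% interval of the difference lay within 0.6 of 0 on the log2 scale. This held for 66.4% of all genes and for 90.9% of 77 mitochondrial ribosomal protein genes. The limit of 0.6 is the smaller of those that the study names for a change in expression.

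At 42 µM against DMSO the family median was 0.075, with 52 of 75 genes (69.3%) above 0, against 45.7% of all genes and a median of −0.021. Members ranged from −0.29 (RPS15) to 0.43 (RPL36A). Again 0 of 75 were called with limma, in a comparison that called 837 of 24176 genes (3.46%), 1.8% higher and 1.67% lower. That number fell to 0 genes without DMSO replicate 2 or without 42 µM replicate 2. It was 1 with slide as a fixed block and 1226 with slide as a random block. At an unadjusted p below 0.05, 3 members were higher (RPL3, RPL5 and RPL34) and 1 was lower (RPS15), where 8.35% and 7.73% of all genes were. In 5 members (RPL3, RPL5, RPL12, RPLP2 and RPS25) all 4 treated arrays lay above all DMSO arrays, against 5.93% of all genes, and in 4 (RPS15, RPS16, RPL35 and RPS21) they lay below, against 7.01%. Differences were within 0.3 of 0 in 69 members (92%), compared with 77.8% of all genes. Intervals lay within 0.6 of 0 for 62 members (82.7%), against 65.5% of all genes and 68.8% of the mitochondrial ribosomal protein genes. In RNA from whole cultures, a change in every cell and a change in the share of cells with the transcript cannot be told apart.

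**Figure D1:**
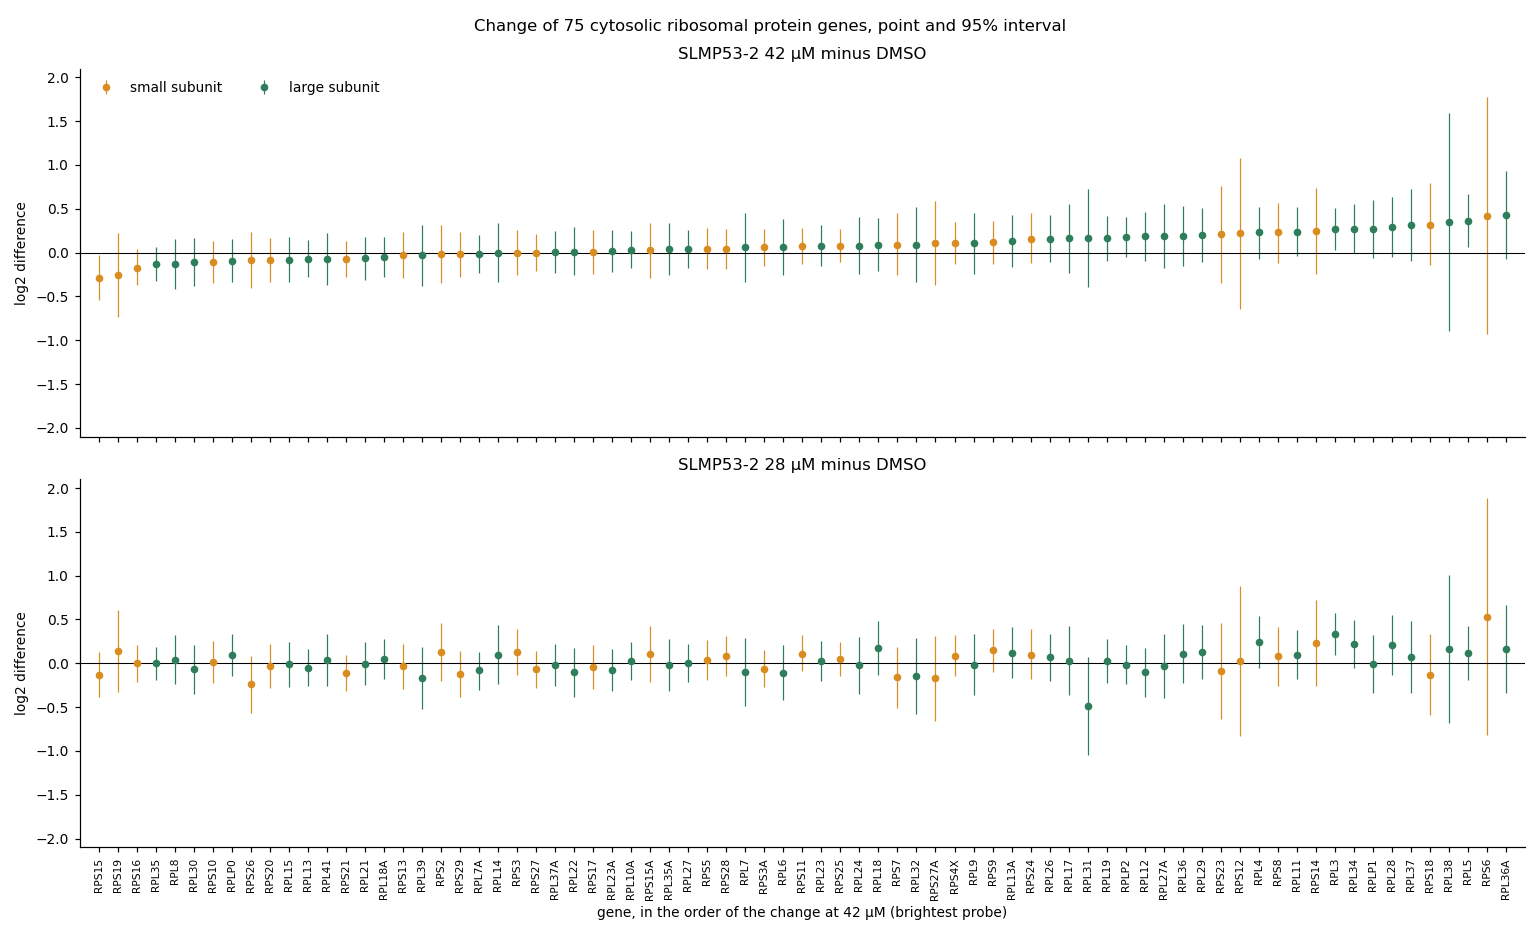
Log2 difference from DMSO (vertical axis) of each of the 75 genes, in the order of the change at 42 µM, with points for the estimate and lines for the 95% interval; orange is the small and green the large subunit. At 42 µM the points run from −0.29 for RPS15 to 0.43 for RPL36A, and RPS6 and RPL38 have the widest intervals.

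Between the doses, 42 µM minus 28 µM, the family median was 0.053 with 50 genes above 0 (66.7%, against 54.7% of all genes), and 0 members were called, as of all genes (0%). At an unadjusted p below 0.05, 2 members were higher (RPL31 and RPL12) and 0 lower, where 1.12% and 1.48% of all genes were. In 2 members (RPLP2 and RPS18) all arrays at 42 µM lay above those at 28 µM, against 0.687% of all genes, and in 3 (RPL35, RPS16 and RPS19) they lay below, against 0.922%. Differences were within 0.3 of 0 in 72 members (96%), compared with 90.9% of all genes. Without replicate 4 of 28 µM the median was 0.007, with 41 genes above 0. By subunit, the 30 small-subunit genes had medians of 0.023 at 28 µM and 0.043 at 42 µM, and the 45 large-subunit genes had medians of 0.028 and 0.089. The difference between the subunits was not tested. Members with a pyrimidine tract within 5 bases of the start site (48 genes) had medians of 0.03 and 0.09 at 28 µM and 42 µM, and those without (12 genes) had −0.04 and 0.05.

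The direction of the family as a whole depended on how the arrays were scaled. In the values above, quantile normalization gives every array the same set of values. When each array was instead scaled to its 75th percentile, the median difference of the 75 genes at 28 µM was −0.209, with 4 genes above 0, while the median of all genes was −0.033. With the signals centred on spike-in control probes it was 0.203, with 73 genes above 0, but the median of all genes was then 0.38, so that the family stood at −0.177 relative to all genes. With no scaling the all-gene median at 42 µM minus 28 µM was −0.258 and the family median −0.13. At 42 µM against DMSO the family median was −0.082 with the 75th percentile, 0.13 with spike-in scaling and −0.053 with no scaling. These 3 shift all Edwards values of an array by the same amount. By construction they therefore share the family median relative to all genes and are not separate results on it. That relative median was −0.034 at 42 µM and −0.177 to −0.176 at 28 µM. At 28 µM it was −0.204 with the processed values at the 75th percentile and 0.052 with quantile normalization. No member was called under any of these 5, although the number of all genes called at 28 µM was 1067 with spike-in scaling and 468 with no scaling, against 0 under the other 3.

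**Figure D2:**
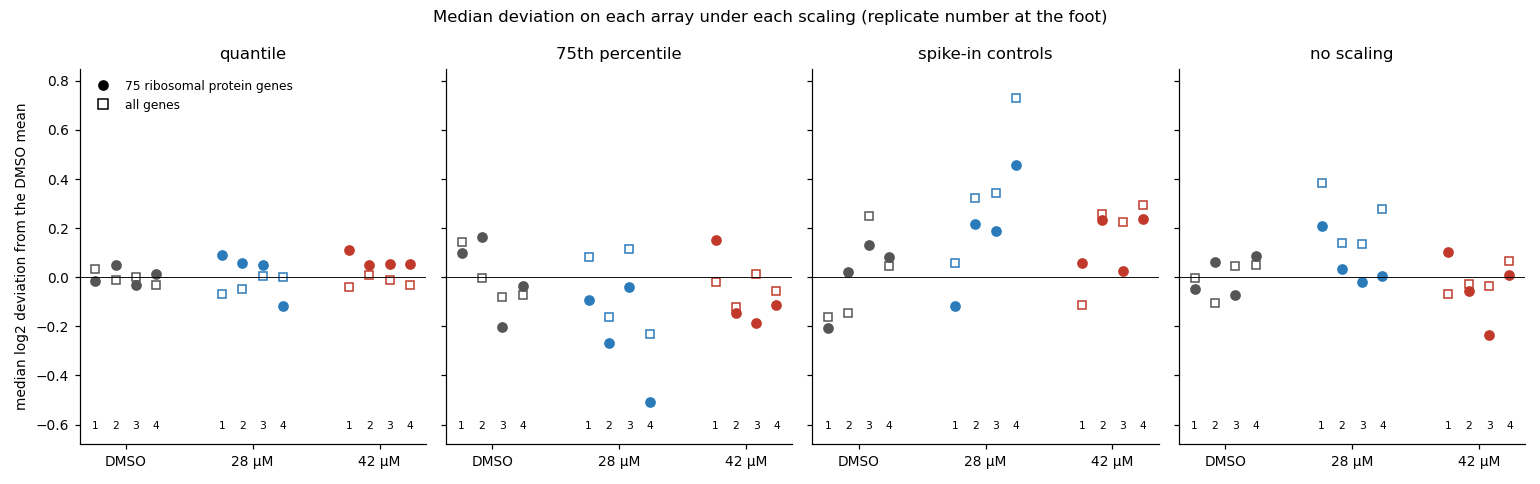
Median log2 deviation from the DMSO mean (vertical axis) on each of the 12 arrays, for the 75 ribosomal protein genes (filled circles) and all genes (open squares), under 4 scalings; the replicate number stands at the foot. Under quantile normalization the family medians lie between −0.119 and 0.112, while under the 75th percentile replicate 4 of 28 µM lies at −0.507.

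Under quantile normalization the family median deviated from the DMSO mean by −0.015, 0.049, −0.032 and 0.015 on the DMSO arrays. At 28 µM the deviations were 0.092, 0.057, 0.048 and −0.119, and at 42 µM they were 0.112, 0.051, 0.052 and 0.054. All 4 arrays at 42 µM lay above the DMSO arrays, but the lowest, 0.051, only just above the highest of DMSO, 0.049. At 28 µM replicate 4 lay below all DMSO arrays and replicate 3 within their range. With the 75th percentile the arrays at 42 µM (0.152, −0.146, −0.188 and −0.112) overlapped DMSO (0.099, 0.162, −0.201 and −0.036). They also overlapped with spike-in scaling and with no scaling. The other values here are under quantile normalization. On replicate 4 of 28 µM the large-subunit genes deviated by −0.193 and the small-subunit genes by −0.029. Within slides that held both groups, the median difference at 28 µM was 0.058 on slide 1, 0.073 on slide 2 and −0.101 on slide 4, and at 42 µM it was 0.152 on slide 2, 0.102 on slide 4 and 0 on slide 5. With slide as a block the medians were 0.015 at 28 µM and 0.07 at 42 µM.

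RPLP0, RPLP1 and RPLP2 form the stalk of the large subunit, where translation factors dock. The log2 signals of RPLP0 were 16.96, 16.83, 16.80 and 16.68 in DMSO, 16.88, 17.09, 16.80 and 16.89 at 28 µM, and 16.88, 16.80, 16.62 and 16.60 at 42 µM. The groups overlapped, with the lowest values at 42 µM. For RPLP1 they were 15.29, 15.60, 15.33 and 15.45, then 15.69, 15.42, 15.48 and 15.02, then 15.94, 15.49, 15.52 and 15.80, in the same order of groups. RPLP2, measured by 1 probe, gave 15.49, 15.63, 15.54 and 15.61 in DMSO, 15.63, 15.60, 15.64 and 15.34 at 28 µM, and 15.88, 15.73, 15.73 and 15.66 at 42 µM. All arrays of RPLP2 at 42 µM lay above the DMSO arrays and above those at 28 µM, although by a log2 difference of only 0.18 (SE 0.11, adjusted p = 0.472). At 42 µM RPLP1 differed from DMSO by 0.27 (SE 0.15, adjusted p = 0.455) and RPLP0 by −0.09 (SE 0.11, adjusted p = 0.795). Under the alternatives RPLP0 at 42 µM took values from −0.15 to 0.08 and RPLP2 from −0.05 to 0.23, so that neither kept a sign.

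RPL5 and RPL11 are carried with the small ribosomal RNA of the large subunit and bind MDM2 when they are free, and RPL23 is another protein that binds it. RPL5 had log2 signals of 15.18, 15.51, 15.24 and 15.18 in DMSO, 15.54, 15.67, 15.37 and 15.01 at 28 µM, and 15.66, 15.52, 15.76 and 15.64 at 42 µM. All 4 values at 42 µM lay above those of DMSO, the nearest by 0.01, while those at 28 µM surrounded them. The difference at 42 µM was 0.36 (95% interval 0.06 to 0.67, adjusted p = 0.221), the smallest adjusted p of any member in that comparison. RPL11 had 15.89, 15.73, 16.16 and 16.33 in DMSO, 16.28, 16.08, 16.09 and 16.05 at 28 µM, and 16.28, 16.30, 16.21 and 16.28 at 42 µM. The DMSO arrays spread more widely than the others (SD 0.27, against 0.10 and 0.04), and the difference at 42 µM was 0.24 (95% interval −0.04 to 0.52, adjusted p = 0.417). The brightest probe of RPL23 gave 0.08 at 42 µM (95% interval −0.15 to 0.31). Among 14 family members on a list of MDM2-binding ribosomal proteins, the median difference was 0.039 at 28 µM and 0.088 at 42 µM, 8 and 10 of them were above 0, and 0 were called at either dose.

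RPL3, a core protein near the site of peptide bond formation, had the smallest adjusted p of the family at 28 µM. Its values were 16.09, 15.91, 16.15 and 15.91 in DMSO, 16.24, 16.41, 16.36 and 16.37 at 28 µM, and 16.16, 16.51, 16.26 and 16.20 at 42 µM. Both treated groups lay above all DMSO arrays, at 42 µM by as little as 0.01. Its differences from DMSO had an SE of 0.11 and came to 0.33 (adjusted p = 0.296) for the lower dose and 0.27 (adjusted p = 0.254) for the higher. RPL4, which lines the tunnel through which the new peptide leaves, had differences of 0.24 (SE 0.14) and 0.23 (SE 0.14), and RPL36A had 0.16 (SE 0.23) and 0.43 (SE 0.23), with groups that overlapped.

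RPS15, which sits on the head of the small subunit, had the lowest difference at 42 µM. Its log2 signals were 16.94, 16.74, 16.71 and 16.71 in DMSO, 16.43, 16.80, 16.60 and 16.77 at 28 µM, and 16.31, 16.60, 16.48 and 16.57 at 42 µM. The 42 µM arrays all lay below DMSO, while the 28 µM arrays overlapped both, and the difference was −0.29 (95% interval −0.54 to −0.03, adjusted p = 0.252). RPS16, also a small-subunit protein, had 17.00, 16.80, 16.83 and 16.85 in DMSO, 16.80, 16.94, 16.78 and 16.94 at 28 µM, and 16.67, 16.74, 16.77 and 16.65 at 42 µM. The arrays at 42 µM lay below both other groups, with a difference from DMSO of −0.17 (SE 0.10, adjusted p = 0.478). RPS19, the gene most often mutated in Diamond-Blackfan anaemia, had 16.65, 16.49, 16.52 and 15.80 in DMSO, 16.49, 16.49, 16.55 and 16.49 at 28 µM, and 16.48, 16.46, 15.49 and 16.03 at 42 µM. Replicate 4 was low in DMSO and replicates 3 and 4 were low at 42 µM, and its difference of −0.25 (95% interval −0.73 to 0.22) did not pass the test. On the list of 19 genes mutated in that anaemia the medians were 0.003 and 0.039, with 0 called.

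**Figure D3:**
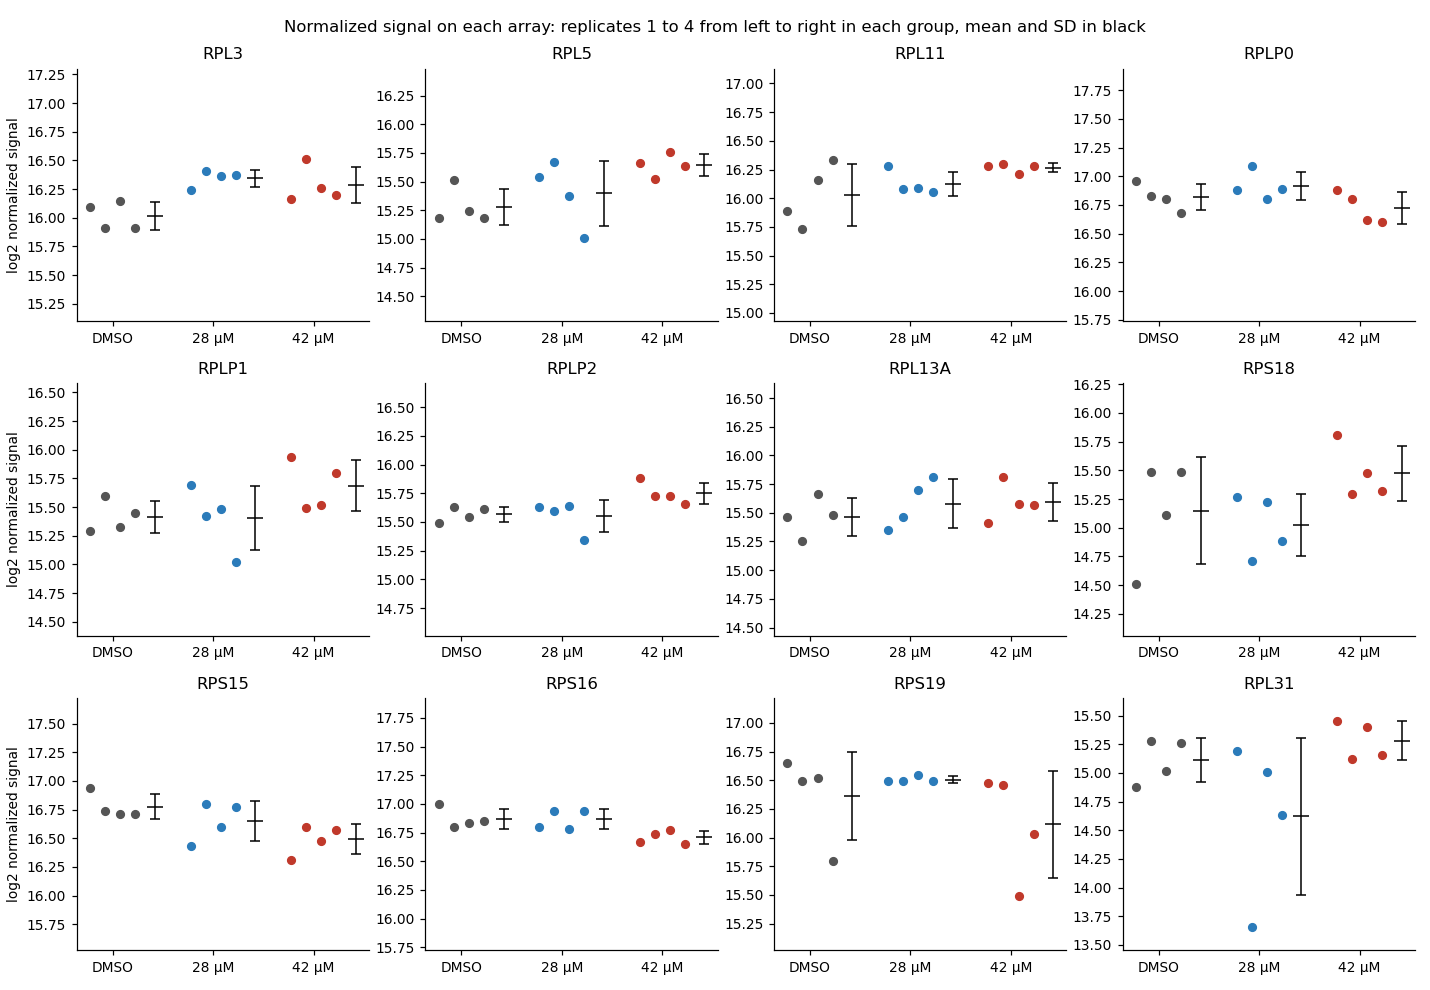
Log2 normalized signal (vertical axis, of the same span in each panel) of 12 members on each array, replicates 1 to 4 from left to right in DMSO (grey), 28 µM (blue) and 42 µM (red), with mean and SD in black. RPL3 is the only one of the 12 in which all arrays at 28 µM lie above DMSO, and RPS15 and RPS16 at 42 µM lie below DMSO.

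Among 10 members often used as reference genes in expression measurements, differences ranged from −0.14 to 0.12 at 28 µM and from −0.11 to 0.32 at 42 µM, with 0 called. RPL13A had log2 signals of 15.46, 15.25, 15.66 and 15.48 in DMSO, 15.35, 15.46, 15.70 and 15.81 at 28 µM, and 15.41, 15.81, 15.58 and 15.57 at 42 µM, which overlapped throughout. Its differences were 0.12 (95% interval −0.17 to 0.41) and 0.13 (95% interval −0.16 to 0.43). RPL27 gave 0.00 (95% interval −0.21 to 0.22) and 0.04 (95% interval −0.17 to 0.26), and RPL37A gave −0.02 (95% interval −0.26 to 0.22) and 0.01 (95% interval −0.23 to 0.25). RPS18 varied more, with 14.51, 15.49, 15.11 and 15.49 in DMSO, 15.27, 14.71, 15.22 and 14.88 at 28 µM, and 15.81, 15.29, 15.48 and 15.32 at 42 µM. Its arrays at 42 µM all lay above those at 28 µM, by 0.46 between the means (95% interval −0.01 to 0.92), and they overlapped DMSO. These intervals give the range of differences that 4 arrays per group leave plausible, without adjustment over the probes. They are not a limit of detection.

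By the brightest probe, the largest difference between the doses was that of RPL31, at the exit of the peptide tunnel. Over its 4 probes this difference ran from 0.03 to 0.66, the latter on the brightest. That probe had 14.88, 15.28, 15.02 and 15.26 in DMSO, 15.19, 13.66, 15.01 and 14.63 at 28 µM, and 15.45, 15.12, 15.40 and 15.16 at 42 µM. Replicates 2 and 4 of 28 µM were low, the groups overlapped, and the difference of 42 µM from 28 µM was 0.66 (SE 0.26, adjusted p = 1). RPL12, which binds at the base of the stalk, had 16.28, 16.29, 16.25 and 16.30 in DMSO, 16.26, 16.25, 16.43 and 15.79 at 28 µM, and 16.43, 16.41, 16.57 and 16.46 at 42 µM. Replicate 4 of 28 µM was the low array, and the difference was 0.29 (SE 0.13, adjusted p = 1).

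Less could be said of some members. RPS6, the substrate of the ribosomal S6 kinases, had 1 probe, with the largest spread of the family: 13.44, 14.11 and 14.69 on 3 DMSO arrays, replicate 1 being lost to an outlier flag, 14.86, 16.30, 13.72 and 13.57 at 28 µM, and 15.33, 14.08, 13.44 and 15.17 at 42 µM. Its 95% intervals ran from −0.82 to 1.89 and from −0.93 to 1.78. RPL38 also had 1 probe, missing on 4 arrays, so that 42 µM was represented by replicate 2 alone (14.69, against 14.84, 14.67, 14.29 and 13.55 in DMSO). The lone array was taken to vary like the other groups in its interval of −0.89 to 1.59. RPL22, RPL41, RPS27A (which is made as a fusion with ubiquitin), RPS14, RPS23, RPL39 and RPL8 had differences from −0.17 to 0.25 from DMSO, all with intervals that included 0.

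Of the 76 gene names, 22 had 1 probe and 54 had more, up to 10 for RPL21, and probes of 1 name did not always give the same sign. In the 54 genes with several probes, the differences of the probes at 42 µM spanned a median of 0.23, and in 22 genes the sign differed between probes. In 0 genes were opposite changes both past an unadjusted p of 0.05. The widest spans were in RPL23, with 1.21 at 28 µM and 1.39 at 42 µM, and in RPL7, with 1.05 between the doses. The second RPL23 probe (A_32_P30710) had log2 signals of 11.72, 10.57, 8.53 and 11.08 in DMSO, 12.49 and 10.94 on 2 arrays at 28 µM, and 11.21, 14.01, 10.60 and 11.97 at 42 µM. This spread within groups exceeded the spread of the brightest RPL23 probe, which stayed between 16.13 and 16.44 on all 12 arrays.

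Counting every probe by itself, 1 of 188 member probes was called at 42 µM, against 3.09% of all 33477 probes. It was a dim probe of RPS26 (A_23_P139471, chr12:56435739-56435798 in hg19). RPS26 is a small-subunit protein at the exit of the mRNA channel. The probe gave 7.58, 7.65, 7.32 and 7.72 in DMSO, 6.71, 7.02, 7.18 and 7.30 at 28 µM, and 6.83, 6.70, 6.97 and 7.18 at 42 µM. All treated arrays lay below all DMSO arrays, and with an SE of 0.15 the differences were −0.52 for the lower dose (adjusted p = 0.234) and −0.65 for the higher (adjusted p = 0.0372). The adjusted p at 42 µM ranged from 0.0133 to 0.472 over 27 alternatives and was below 0.05 in 14 of them. Leaving out DMSO replicate 2 gave −0.62 and an adjusted p of 0.115, leaving out replicate 2 of 42 µM gave −0.57 and 0.14, and with slide as a block it was 0.104.

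The other 3 probes named RPS26 did not pass the test. The brightest (A_23_P116694, chr12:56437923-56437982) had 16.07, 16.02, 16.19 and 16.36 in DMSO, 16.14, 15.55, 15.98 and 15.98 at 28 µM, and 16.06, 15.79, 16.27 and 16.18 at 42 µM. Its groups overlapped, with differences of −0.24 (SE 0.15) and −0.08 (SE 0.15). The remaining probes, A_24_P289404 (chr12:56437160-56437219) and A_24_P638294 (chr12:56437195-56437254), overlap by 25 bases in position but differ there in 2 bases. Both stretches are printed 5′ to 3′ with the differing bases in capitals, because they show that probes filed under 1 name and place need not hold the same bases.
RPS26, A_24_P289404: gtgTaattcacaGcaaagtagtcag
RPS26, A_24_P638294: gtgCaattcacaAcaaagtagtcag
Counted from the first base of the overlap, the differences are T4C and G13A. At 42 µM the first of these probes differed from DMSO by −0.20 (SE 0.20) and the second by −0.66 (SE 0.40), the latter with 12.95, 12.03, 10.67 and 12.82 on the 4 arrays, of which replicate 3 was the lowest. Among 74 pairs of unspliced probes of 1 gene, 10 overlapped by 15 bases or more, and in 6 of these the bases differed. RPL23A had the most differences in 35 shared bases, G9C, G13A, A30C and A32G:
RPL23A, A_24_P195693: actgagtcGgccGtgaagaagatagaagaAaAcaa
RPL23A, A_24_P264106: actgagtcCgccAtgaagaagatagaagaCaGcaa
These probes gave 0.16 and 0.15 at 42 µM and −0.02 and −0.42 at 28 µM, none past the test.

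Genes around the family were counted from lists of mitochondrial ribosomal proteins, ribosome assembly factors with RNA polymerase I, translation factors, and paralogs of ribosomal proteins. Of 77 mitochondrial ribosomal protein genes, 0 were called at 28 µM (median −0.116, 15 above 0) and 3 fell at 42 µM (median −0.181, 11 above 0), where 1.67% of all genes were called lower. These were MRPL17 with −0.68 (SE 0.17, adjusted p = 0.0435), MRPS6 with −0.63 (SE 0.15, adjusted p = 0.0419) and MRPL20 with −0.51 (SE 0.11, adjusted p = 0.0267), all proteins of the ribosome inside mitochondria. They were called in 12, 14 and 16 of 28 alternatives. The list's median at 42 µM was negative under all alternatives run, from −0.351 to −0.127, but its calls ran from 0 to 4, and at 28 µM the median was 0.168 with spike-in scaling, 0.038 with no scaling and −0.205 without replicate 4 of 28 µM. Whether the mitochondrial and the cytosolic genes differ was not tested. Of 72 genes for ribosome assembly and RNA polymerase I, among them NCL (nucleolin) with −0.15 (SE 0.12), 0 were called at either dose. The medians were −0.05 and −0.068, and with spike-in scaling they were 0.324 and 0.063. Without replicate 4 of 28 µM the median at that dose was −0.101.

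Of 47 translation factors 0 were called at 28 µM (median 0.13) and 3 rose at 42 µM (median 0.114), where 1.8% of all genes were called higher. Without replicate 4 of 28 µM the median at that dose was 0.121, with 3 called higher in a fit that called 670 of all genes. EIF4EBP1, which encodes a repressor of cap-dependent translation that mTOR phosphorylates, had a mean of 13.29 ± 0.07 in DMSO (SD, n = 4 for each group). It was 14.25 ± 0.47 for the lower dose and 14.55 ± 0.24 for the higher. Its difference at 42 µM was 1.26 (SE 0.20, adjusted p = 0.0114), and it was called in 25 of 28 alternatives. EIF4B, a helper of the helicase that unwinds mRNA leaders, rose by 0.72 (SE 0.17, adjusted p = 0.0361), and EIF1, which helps select the start codon, rose by 0.50 (SE 0.12, adjusted p = 0.0427); they were called in 13 and 12 of 28 alternatives. The list's median at 42 µM ran from −0.04 to 0.173 over the alternatives. FAU, which encodes a ribosomal protein fused to a ubiquitin-like protein and lies outside the naming rule, had a difference of −0.10 (SE 0.10) at 42 µM.

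Of 10 paralogs 1 fell at 42 µM, where 1.67% of all genes were called lower. It was RPL39L, a copy of RPL39 known mainly from testis, with −0.62 (SE 0.15, adjusted p = 0.0413), called in 14 of 28 alternatives. RPL39 itself gave −0.03 (SE 0.16). RPS27L, a p53 target and paralog of RPS27, had a mean of 15.23 ± 0.08 in DMSO (SD, n = 4 for each group). It was 14.95 ± 0.37 for the lower dose and 14.68 ± 0.22 for the higher. Its arrays at 42 µM lay below DMSO, with a difference of −0.55 (SE 0.17, adjusted p = 0.109), while RPS27 gave 0.00 (SE 0.10). It was called in 4 of 28 alternatives, over which the adjusted p ran from 0.0202 to 0.488. RPL22L1, the paralog of RPL22, had 0.16 (SE 0.12) at both doses. Without DMSO replicate 2, and without 42 µM replicate 2, none of the genes called in these lists was called, as of all genes.

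**Figure D4:**
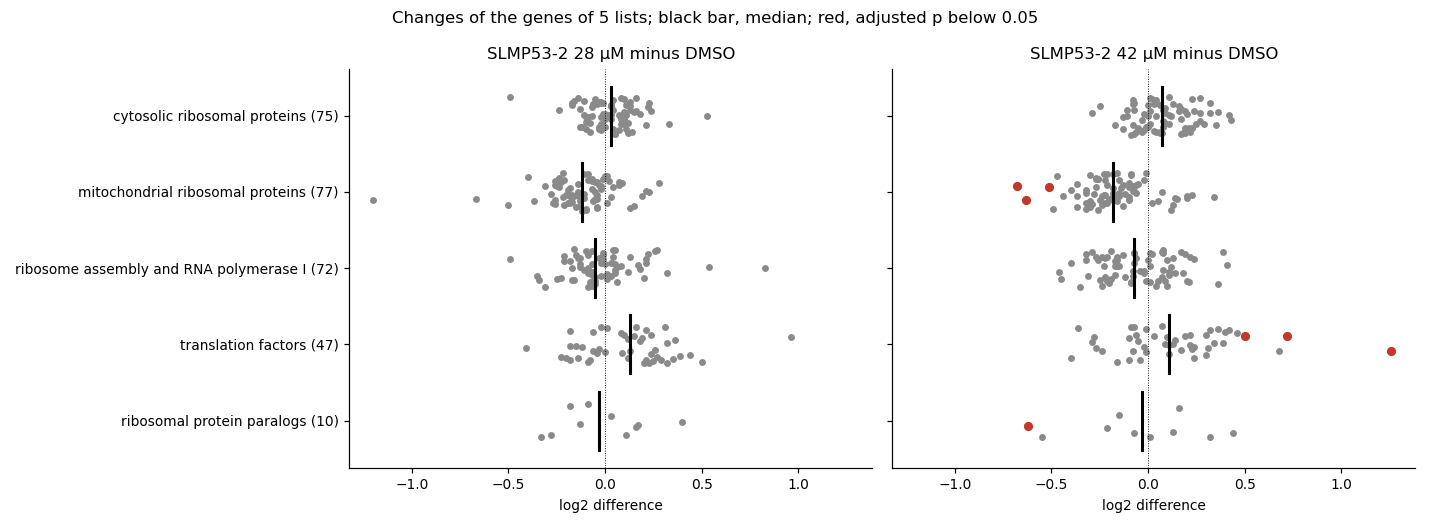
Log2 difference from DMSO (horizontal axis) of the genes of 5 lists at 28 µM (left) and 42 µM (right); each point is a gene, black bars are list medians and red points have an adjusted p below 0.05. At 42 µM the cytosolic ribosomal protein genes have a median of 0.075 with no red point, and the mitochondrial ones a median of −0.181 with 3.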

How the data were processed

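RNA of 12 samples was measured on Agilent arrays of 1 colour. The authors deposited mean spot intensity, local background intensity and processed intensity for each array from Agilent Feature Extraction. Its version was 10.7.3.1 per the file headers, while the study's methods name another version. Also deposited was a table of log2 values that the authors made by Edwards background correction and quantile normalization. Probe positions are in hg19, per the file headers. Precision is limited by the number of arrays.

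Here both steps were repeated from the intensities with limma 3.58.1 in R 4.3.3. Control spots and outlier-flagged spots were left out, and spots of a probe were averaged. Probes dim on 3 or more of 4 arrays in each of the groups were dropped, leaving 33477. Over the members these values and the deposited log2 values correlated at 0.999 or more on each array and differed by at most 0.19. Accessions matched RefSeq for 175 of 189 member probes, all with the same symbol.

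lmFit and eBayes were fitted to 12 arrays and 3 groups without a block, with two-sided tests and Benjamini-Hochberg adjustment over all probes. The procedure was tested on simulated data with planted changes larger than that of any member gene. Its power for smaller changes was not tested. The call was an adjusted p below 0.05. Alternatives were other background corrections and scalings, filters, slide and replicate blocks, array weights, an intensity trend, other ways to pick probes, and leaving out each array; spike-in scaling and no scaling were added after the data were seen. Named members were those chosen by role, the 4 largest increases and decreases per comparison, and genes whose probes disagreed most; in each list, called genes. RPL23A, the brightest genes (RPS27, RPL13, RPS28 and RPL35), RPL27, RPL37A, RPL34, RPS25, RPS21, NCL and FAU were named after their values were seen. The levels of some genes are not reported here. The members and lists were chosen with earlier results of these data known. Figures were drawn with matplotlib.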

Additional observations from a re-analysis of the deposited data

Results flagged for a closer look

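In all, 111 groups of 4 arrays were examined for a single array far from the others, by the 95% critical value of Dixon's test. Of these, 10 stood out (9.01%). By chance the test marks about 1 in 20 groups when genes are not picked by their values. Some of these genes were named for a large change in the same data, so these rates cannot be compared. In DMSO, RPL4 was low on replicate 3 with a log2 signal of 13.78 (the others 14.02 to 14.07), RPL41 was low on replicate 4 with 16.60 (others 16.89 to 16.92), RPS14 was low on replicate 4 with 14.32 (others 15.33 to 15.42), and RPS15 was high on replicate 1 with 16.94 (others 16.71 to 16.74). Without that array the difference of RPS15 at 42 µM was −0.23, and over all alternatives it ran from −0.35 to −0.14.

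At 28 µM, replicate 4 stood apart in 3 genes: RPLP2 was low with 15.34 (others 15.60 to 15.64), EIF1 was low with 16.06 (others 16.51 to 16.55) and RPS27L was high with 15.51 (others 14.73 to 14.82). Without that array limma gave EIF1 at 28 µM a difference from DMSO of 0.44 with an adjusted p of 0.0403. EIF4B had 0.67 with 0.0237 and EIF4EBP1 1.18 with 0.00176. With all arrays the adjusted p values were 0.343, 0.29 and 0.173. The array was singled out in part by its EIF1 value, so the EIF1 result without it is not a separate test. EIF1 at 28 µM was called in 1 of 28 alternatives. RPS19 was high on replicate 3 with 16.55, where the others were all 16.49, and MRPS6 was low on replicate 2 with 12.19 (others 12.48 to 12.53). At 42 µM the median deviation of the 75 ribosomal protein genes was highest on replicate 1, 0.11 against 0.05 on each of the others.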

How the results depend on the processing

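No ribosomal protein gene was called in any comparison under the alternatives run, apart from 1 probe of RPS26 at 42 µM when every probe was counted by itself. The family medians moved with scaling. With the processed intensity at the 75th percentile they were −0.23 at 28 µM, −0.083 at 42 µM and 0.131 for 42 µM minus 28 µM, and with the Edwards values at the 75th percentile −0.209 and −0.082 at the doses. Spike-in scaling gave 0.203, 0.13 and −0.079, and no scaling gave −0.053 at 42 µM and −0.13 between the doses. At 42 µM the mean over the probes of a gene gave 0.131 and every probe by itself 0.122. Within slides the values that moved were −0.101 on slide 4 at 28 µM, 0.152 on slide 2 and 0 on slide 5 at 42 µM, and 0.132 on slide 4 between the doses. The cause was not tested. Leaving out each array in turn gave medians from −0.008 to 0.058 at 28 µM, 0.053 to 0.079 at 42 µM and 0.007 to 0.073 between the doses, with 0 to 0 genes called.

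The replicate numbers share no stated origin: 7 of 12 pairs with the same number correlated above 0.1, over a range from −0.44 to 0.62. With a replicate block the medians were 0.028, 0.064 and 0.05 and 0 members were called. No member was near the ceiling, so leaving such members out gave no value. Over all genes the count called at 42 µM was 837. It fell to 0 without DMSO replicate 2, to 0 without 42 µM replicate 2 and to 1 with slide as a fixed block. It rose to 1226 with slide as a random block, 1471 with the replicate block and 1708 with array weights. At 28 µM it was 0 and rose to 670 without 28 µM replicate 4, to 1067 with spike-in scaling, to 468 with no scaling and to 2 with the replicate block.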
